A study of Mus musculus with 8 samples.

Results

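The genes of cholesterol and fatty acid synthesis were read in mouse embryonic stem cells after 3 knockdowns. The genes were taken from a list of 32 names, and each was represented by the brightest probe set that carries exactly 1 gene symbol. All 32 were measured, out of 18193 genes represented in this way. They fall into 6 genes of the mevalonate pathway, 10 of the sterol branch from squalene to cholesterol, 6 regulators and transport genes, and 10 of fatty acid synthesis and desaturation.

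The cells were of the embryonic stem cell line NG4, reverse transfected with small interfering RNA (siRNA) and collected 48 h later. The 4 groups of 2 Affymetrix arrays each received siRNA against Sox2 (siSox2), a pluripotency transcription factor, against Psmd14 (siPsmd14), a deubiquitinase of the proteasome, against Ddb1 (siDdb1), an adaptor of CUL4 ubiquitin ligases, or a non-targeting siRNA (siNonTarget). All groups share the line, the transfection, the collection time and the amplification of RNA before hybridisation. The labels do not say whether the replicates of a group were separate cultures, so the p-values reflect the spread among these arrays, which may be technical.

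Cells make cholesterol from acetyl-CoA through mevalonate, isoprenoids and squalene, and they build fatty acids from the same acetyl-CoA. Genes of both routes are targets of the sterol regulatory element binding proteins, the products of Srebf1 and Srebf2. Scap escorts these proteins to the Golgi for cleavage when sterol is scarce, and Insig1 and Insig2 hold them in the endoplasmic reticulum when it is plentiful. Srebf2 is known mainly for the cholesterol genes and Srebf1 for the fatty acid genes. In proliferating stem cells these routes supply membrane lipid.

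The arrays were alike in overall level, with medians of 27.37 to 28.83 intensity units, and the SE of a fold change (log2) had a median of 0.151 over probe sets. Targeted transcripts read 83.9% and 70.0% of the control mean for Sox2 in siSox2, 90.6% and 82.8% for Psmd14 in siPsmd14, and 22.1% and 46.1% for Ddb1 in siDdb1, replicate 1 first. None of these differences passed the threshold against siNonTarget, so each group is named by its label. All 8 embryonic stem cell markers lay above the array median on every array. All 8 had fold changes below 0 in siSox2, siPsmd14 and siDdb1 (55.2%, 52.6% and 53.2% of all genes), with medians of -0.40, -0.44 and -0.18. In siDdb1 they ran from -0.67 to -0.0009, so some were close to unchanged. Of the 8 markers, Esrrb in siSox2 passed the threshold (-0.58, limma adjusted p = 0.0399). Of 10 trophectoderm markers, 7 rose past the threshold in siSox2 (2.81% of all genes) and 3 in siPsmd14 (1.7%). Summed linear intensity of the 10 was 15091 and 27618 on the siSox2 arrays and 11632 and 9890 on the siPsmd14 arrays. It was 3952 and 3725 on the siDdb1 arrays, against 2977 and 2627 on the siNonTarget arrays. These sums weigh the brightest genes most. In siPsmd14, Krt8 read 12.51 and 12.40 (log2) and Krt18 12.14 and 11.64, while Tfap2c and Hand1 had fold changes below 0. Median fold changes of the 10 were 2.37 in siSox2, 0.58 in siPsmd14 and 0.59 in siDdb1. Elf5 was below the array median on all 8 arrays. Of 8 fibroblast markers, 4 (Col1a1, Col3a1, Postn and Lum) lay below the array median on all 8 arrays, and the summed intensity was 167 to 218 over the knockdown arrays and 183 to 194 in siNonTarget. Of 8 endoderm markers, Gata4, Sox17 and Sox7 did so, with sums of 306 to 628 in the knockdowns and 296 and 359 in siNonTarget. In siSox2, Dab2 (2.67) and Gata6 (1.87) of the endoderm list rose, and Lama1 of that list (-2.94) and Thy1 of the fibroblast list (-1.06) fell. In bulk samples, a smaller share of cells of one kind and less RNA per cell cannot be told apart. For Actb, the 3' probe set exceeded the 5' one, a measure of RNA degradation, by 0.346 (log2) on the first siPsmd14 array and by 0.0962 to 0.214 on the rest. Signal for 18S rRNA stood at 13.06 (log2 intensity) on the second siPsmd14 array and 12.68 on the second siDdb1 array, and at 11.00 to 11.85 elsewhere.

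The promoters below belong to 4 of the 6 genes that passed a test in the results that follow, and are shown for the motifs they hold. They are RefSeq windows of GRCm38.p6, from 250 bases before to 50 bases after the annotated start, written 5′ to 3′ on the gene's strand. The Hmgcs1 window is chr13:119690101-119690400 (+), that of Mvk chr5:114444019-114444318 (+), that of Mvd chr8:122443373-122443672 (-) and that of Srebf2 chr15:82147019-82147318 (+). Capitals mark CCAAT, the box of the factor NF-Y that works beside the sterol proteins, on either strand (ATTGG on the other), and a sterol regulatory element of the form TCACNCCAC. The other called genes are Fads1 and Scd2.
Hmgcs1: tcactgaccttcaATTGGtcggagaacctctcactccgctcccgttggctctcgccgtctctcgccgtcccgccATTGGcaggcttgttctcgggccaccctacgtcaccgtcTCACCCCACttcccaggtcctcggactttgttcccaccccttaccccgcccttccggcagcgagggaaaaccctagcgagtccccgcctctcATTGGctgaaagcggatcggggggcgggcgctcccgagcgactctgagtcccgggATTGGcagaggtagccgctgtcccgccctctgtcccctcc
Mvk: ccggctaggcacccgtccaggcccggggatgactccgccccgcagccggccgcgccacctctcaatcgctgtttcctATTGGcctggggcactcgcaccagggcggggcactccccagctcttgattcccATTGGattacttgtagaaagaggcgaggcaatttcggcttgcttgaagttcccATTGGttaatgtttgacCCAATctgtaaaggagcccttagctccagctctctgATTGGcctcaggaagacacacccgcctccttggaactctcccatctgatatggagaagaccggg
Mvd: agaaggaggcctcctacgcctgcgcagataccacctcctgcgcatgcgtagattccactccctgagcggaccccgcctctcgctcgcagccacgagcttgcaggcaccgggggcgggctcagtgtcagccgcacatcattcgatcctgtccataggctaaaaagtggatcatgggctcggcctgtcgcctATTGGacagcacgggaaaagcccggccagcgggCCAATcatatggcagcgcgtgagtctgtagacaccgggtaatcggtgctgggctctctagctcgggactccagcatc
Srebf2: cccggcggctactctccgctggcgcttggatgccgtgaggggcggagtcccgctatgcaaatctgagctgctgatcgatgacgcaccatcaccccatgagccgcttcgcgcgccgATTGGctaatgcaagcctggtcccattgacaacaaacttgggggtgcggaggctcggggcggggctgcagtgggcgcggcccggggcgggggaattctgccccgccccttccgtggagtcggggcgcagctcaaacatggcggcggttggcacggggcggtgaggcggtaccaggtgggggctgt

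Promoter windows were found for 25 of the 32 genes. CCAAT, in either orientation, was in the windows of 21 of the 25, against 41.1% of 27025 genes with a window. It was in all 5 mevalonate and all 8 sterol genes with a window, in 4 of 5 regulators and in 4 of 7 fatty acid genes. GGGCGG, the Sp1 box, was in 20 of 25 (38.2% of all genes), and the E-box CACGTG in 6 of 25 (8.09%), namely Dhcr7, Elovl5, Hsd17b7, Insig1, Sc5d and Scap. TCACNCCAC was in 1 of 25 (1.44%), at base 114 of the Hmgcs1 window. All were searched on both strands, and none of these motifs contains another. A match in such a window is a description of its letters only.

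Against siNonTarget, no gene of the 32 passed an adjusted p of 0.05 in any of the 3 knockdowns. The limma test, adjusted over all 45037 probe sets, called 2.81% of all represented genes higher and 1.46% lower in siSox2, 1.7% higher and 0.187% lower in siPsmd14, and 0.044% higher and 0% lower in siDdb1. At an unadjusted limma p under 0.05, 7 of the 32 stood higher and 1 lower in siSox2 (10.2% and 8.93% of all genes), 0 higher and 14 lower in siPsmd14 (9.05% and 8.07%), and 1 higher and 6 lower in siDdb1 (5.85% and 4.01%). The median log2 fold change of the 32 was 0.26 in siSox2, -0.29 in siPsmd14 and -0.14 in siDdb1, where the medians over all genes were -0.03, -0.01 and -0.01.

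In siSox2, 25 of the 32 fold changes were above 0, against 44.8% of all genes, and both arrays stood above both control arrays for 20 genes (23.3% of all genes) and below them for 4 (29.3%). In siPsmd14, 29 of 32 were below 0 (52.6% of all genes), with 19 genes wholly below the control arrays (24.1%) and 2 wholly above (22.4%). In siDdb1, 27 of 32 were below 0 (53.2% of all genes), with 13 wholly below (22.3%) and 2 wholly above (19.8%). These 3 comparisons share the 2 control arrays, so their values stand side by side and are not independent. The trophectoderm and stem cell marker values given above differed along with these genes, and their part in the lipid gene values was not tested.

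**Figure D1:**
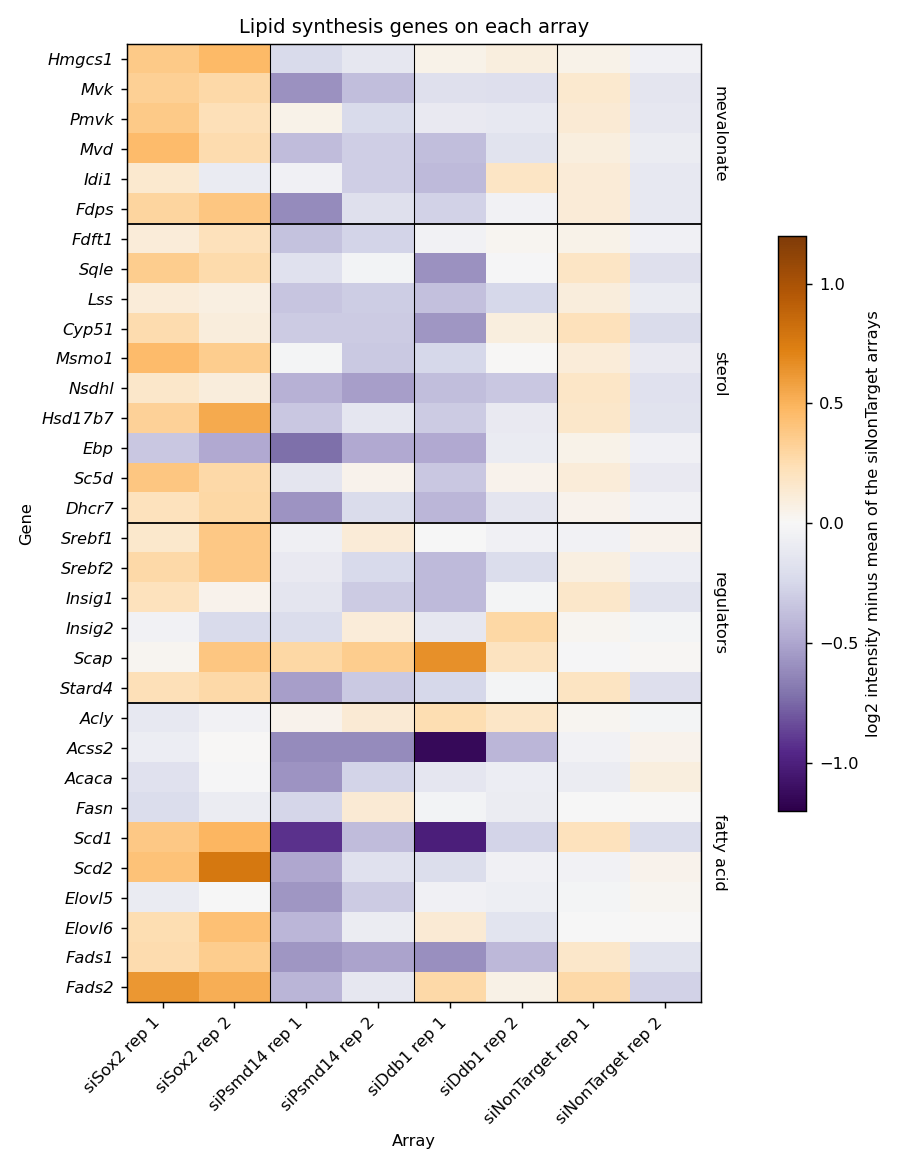
Log2 intensity of each of the 32 genes (rows, by branch) on each of the 8 arrays (columns), minus the mean of the 2 siNonTarget arrays. The siSox2 columns are mostly above that mean and the siPsmd14 columns mostly below it; Ebp, Scap and Acly depart from their neighbours.

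Hmgcs1, the cytosolic synthase of the mevalonate pathway, read 12.14 and 12.24 in siSox2, 11.55 and 11.64 in siPsmd14, 11.83 and 11.86 in siDdb1, against 11.83 and 11.72 in siNonTarget (log2 intensity, replicates 1 and 2, here and below). On this probe set, both siSox2 arrays were the highest of the 8 and both siPsmd14 arrays the lowest. The log2 fold change against siNonTarget was 0.42 in siSox2 (SE 0.12, limma adjusted p = 0.122) and -0.18 in siPsmd14 (adjusted p = 0.561). The next brightest Hmgcs1 probe sets gave 0.17 and 0.16 in siPsmd14, of opposite sign, and 0.54 and 0.61 in siSox2. Over all 32 genes, 28 of 30 other bright probe sets had the sign of the brightest one in siSox2, 25 of 30 in siPsmd14 and 24 of 30 in siDdb1.

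Mvk, the mevalonate kinase, read 8.01 and 7.96 in siSox2, 7.10 and 7.30 in siPsmd14, 7.50 and 7.49 in siDdb1, against 7.83 and 7.54 in siNonTarget. The siPsmd14 arrays lay below all others, and siDdb1 lay just below the lower control array. Its fold change in siPsmd14 was -0.48 (SE 0.14, limma adjusted p = 0.152). Mvd, the decarboxylase that yields isopentenyl diphosphate, read 9.57 and 9.37 in siSox2, 8.72 and 8.82 in siPsmd14, 8.73 and 8.95 in siDdb1, against 9.20 and 9.03 in siNonTarget. All 4 siPsmd14 and siDdb1 arrays lay below the controls and both siSox2 arrays above them, with fold changes of 0.35, -0.35 and -0.27 for siSox2, siPsmd14 and siDdb1. Fdps, the farnesyl diphosphate synthase, had 0.35, -0.40 and -0.16, and the kinase gene Pmvk 0.30, -0.09 and -0.12. Idi1, the isomerase, was the flattest mevalonate gene, with 0.02, -0.17 and -0.11.

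The fold changes of the sterol genes shared a sign within each knockdown, except for Ebp in siSox2. In siPsmd14 and in siDdb1 all 10 genes had fold changes below 0 (52.6% and 53.2% of all genes), with medians of -0.32 and -0.26. In siSox2 9 of 10 were above 0 (44.8%), with a median of 0.21. The arrays lay wholly above the controls for 6 of the 10 in siSox2 (23.3% of all genes). They lay wholly below them for 6 in siPsmd14 (24.1%) and 4 in siDdb1 (22.3%). Whichever array was left out, 7 of the 10 kept their sign in siSox2, 8 in siPsmd14 and 6 in siDdb1. The share of all genes that kept their sign was not computed, so these counts do not show whether the sterol genes were unusually stable. Ebp, the sterol isomerase, read 9.48 and 9.32 in siSox2, 9.08 and 9.32 in siPsmd14, 9.33 and 9.71 in siDdb1, against 9.86 and 9.76 in siNonTarget. Every knockdown array was below both controls, siSox2 included, where the other 9 sterol genes were above 0. The fold changes were -0.41 in siSox2, -0.61 in siPsmd14 (SE 0.16, limma adjusted p = 0.122) and -0.29 in siDdb1.

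Nsdhl, a dehydrogenase of the demethylation steps, read 9.56 and 9.50 in siSox2, 8.95 and 8.87 in siPsmd14, 9.02 and 9.06 in siDdb1, against 9.57 and 9.23 in siNonTarget. The 4 arrays of siPsmd14 and siDdb1 lay below both controls, while siSox2 fell within them. Lss, the lanosterol synthase, read 9.35 and 9.32 in siSox2, 8.90 and 8.94 in siPsmd14, 8.87 and 8.99 in siDdb1, against 9.34 and 9.14 in siNonTarget. The siPsmd14 and siDdb1 arrays lay below both controls and siSox2 overlapped them, with fold changes of -0.32 in siPsmd14 and -0.31 in siDdb1 (limma adjusted p = 0.287 and 0.579).

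Msmo1, the methylsterol oxidase, read 10.53 and 10.42 in siSox2, 10.05 and 9.75 in siPsmd14, 9.83 and 10.08 in siDdb1, against 10.18 and 9.97 in siNonTarget. Only its siSox2 arrays were clear of the controls (0.40, SE 0.16, limma adjusted p = 0.259). Hsd17b7, a sterol ketoreductase, read 8.24 and 8.46 in siSox2, 7.59 and 7.78 in siPsmd14, 7.60 and 7.81 in siDdb1, against 8.09 and 7.75 in siNonTarget. It too was clear of the controls in siSox2 alone (0.43). The other sterol genes, Fdft1, Sqle, Cyp51, Sc5d and Dhcr7, which encode squalene synthase, squalene epoxidase, lanosterol demethylase, lathosterol desaturase and the reductase of the last step, ranged from 0.16 to 0.34 in siSox2, from -0.40 to -0.05 in siPsmd14 and from -0.30 to -0.01 in siDdb1.

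The regulators gave mixed values. Srebf2 read 9.33 and 9.43 in siSox2, 8.95 and 8.81 in siPsmd14, 8.65 and 8.84 in siDdb1, against 9.13 and 8.98 in siNonTarget. Both siSox2 arrays were above the controls and the other 4 knockdown arrays below them, with fold changes of 0.33, -0.17 and -0.31, none past the threshold (limma adjusted p = 0.287, 0.624 and 0.611). Srebf1 read 9.63 and 9.85 in siSox2, 9.40 and 9.59 in siPsmd14, 9.46 and 9.42 in siDdb1, against 9.42 and 9.51 in siNonTarget. It was clear of the controls in siSox2 alone (0.27). A single probe set reads Srebf1, and its transcript forms were not separated here.

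Insig1, itself a known sterol-responsive gene, read 8.99 and 8.82 in siSox2, 8.64 and 8.47 in siPsmd14, 8.39 and 8.76 in siDdb1, against 8.95 and 8.62 in siNonTarget. Each knockdown overlapped the controls. Insig2 read 7.57 and 7.38 in siSox2, 7.40 and 7.72 in siPsmd14, 7.48 and 7.89 in siDdb1, against 7.64 and 7.58 in siNonTarget, with fold changes of -0.14, -0.05 and 0.08. Scap ran against the enzymes in siPsmd14 and siDdb1, with 0.32 and 0.43 above the controls (limma adjusted p = 0.469 and 0.584). Stard4, a carrier of cholesterol between membranes, had 0.25, -0.43 and -0.13 in siSox2, siPsmd14 and siDdb1.

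The fatty acid genes had mixed values as well. The synthesis genes Acly (ATP citrate lyase, -0.08, 0.08 and 0.21), Fasn (fatty acid synthase, -0.15, -0.07 and -0.06) and Acaca (acetyl-CoA carboxylase, -0.10, -0.42 and -0.11) are given in the order siSox2, siPsmd14 and siDdb1 against siNonTarget, and none passed the threshold. For Fasn the 95% interval in siSox2 was -0.49 to 0.19. Scd2, a stearoyl-CoA desaturase, read 11.87 and 12.22 in siSox2, 10.96 and 11.28 in siPsmd14, 11.24 and 11.39 in siDdb1, against 11.40 and 11.49 in siNonTarget. Its siSox2 arrays were the highest of the 8 (0.60, SE 0.16, limma adjusted p = 0.105). Scd1, its relative, read 9.26 and 9.36 in siSox2, 7.95 and 8.49 in siPsmd14, 7.87 and 8.61 in siDdb1, against 9.09 and 8.67 in siNonTarget. The replicates of Scd1 lay far apart in siPsmd14 and siDdb1, and its fold changes of -0.66 and -0.64 there did not pass.

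Fads1, a desaturase of long polyunsaturated fatty acids, read 9.16 and 9.25 in siSox2, 8.34 and 8.39 in siPsmd14, 8.31 and 8.50 in siDdb1, against 9.07 and 8.74 in siNonTarget. Both siSox2 arrays lay above the controls, and the siPsmd14 and siDdb1 arrays lay below them and overlapped each other. Its fold changes were -0.54 in siPsmd14 and -0.50 in siDdb1 (SE 0.15, limma adjusted p = 0.128 and 0.378). Fads2, the neighbouring desaturase of the same route, read 8.95 and 8.86 in siSox2, 7.91 and 8.21 in siPsmd14, 8.61 and 8.39 in siDdb1, against 8.61 and 8.05 in siNonTarget. Unlike Fads1, it overlapped the controls in siPsmd14 and siDdb1.

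Acss2, which makes acetyl-CoA from acetate, read 6.66 and 6.75 in siSox2, 6.13 and 6.13 in siPsmd14, 5.61 and 6.32 in siDdb1, against 6.71 and 6.78 in siNonTarget. Its fold change in siDdb1 was -0.78 (SE 0.21, limma adjusted p = 0.324), and it was -1.14 (adjusted p = 0.0413) without siDdb1 replicate 2. That refit leaves 1 siDdb1 array, which is assumed to vary like the other groups, and the other siDdb1 array read higher. Elovl5, an elongase of polyunsaturated chains, read 10.77 and 10.86 in siSox2, 10.30 and 10.56 in siPsmd14, 10.82 and 10.80 in siDdb1, against 10.84 and 10.89 in siNonTarget. Its siPsmd14 arrays were the lowest of the 8, while siDdb1 lay just below the controls (siPsmd14 fold change -0.44, limma adjusted p = 0.157). Elovl6, an elongase of saturated chains, read 10.58 and 10.76 in siSox2, 9.92 and 10.24 in siPsmd14, 10.46 and 10.17 in siDdb1, against 10.33 and 10.33 in siNonTarget. Only siDdb1 overlapped the control level of Elovl6.

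**Figure D2:**
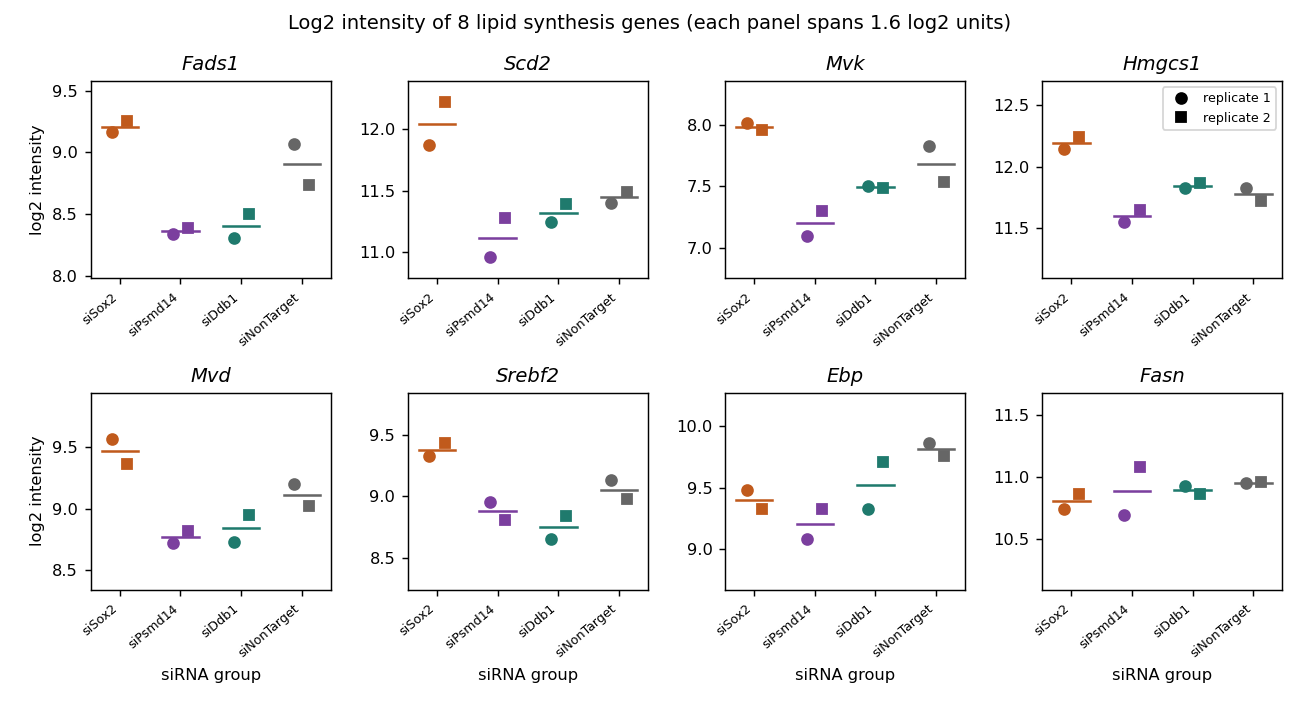
Log2 intensity of 8 genes on every array (circles, replicate 1; squares, replicate 2; lines, group means). Fads1, Scd2, Mvk, Hmgcs1, Mvd and Srebf2 are highest in siSox2, Ebp is highest in siNonTarget, and Fasn varies little between groups.

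Set against siSox2 directly, the lipid genes were lower in siPsmd14, and 5 of 32 passed the threshold, all of them lower, against 2.05% of all represented genes and 2.91% of those brighter than the median probe set. They were Fads1 (-0.84, SE 0.15, 1.79-fold lower, limma adjusted p = 0.021), Scd2 (-0.93, SE 0.16, 1.90-fold lower, adjusted p = 0.022), Mvk (-0.79, SE 0.14, 1.72-fold lower, adjusted p = 0.0235), Hmgcs1 (-0.60, SE 0.12, 1.51-fold lower, adjusted p = 0.037) and Mvd (-0.70, SE 0.14, 1.62-fold lower, adjusted p = 0.0374). None rose, against 1.98% of all genes and 2.79% of the brighter ones. Both siPsmd14 arrays were below both siSox2 arrays for 26 of the 32 (22.4% of all genes) and above them for 1, Acly (25.5%). The median was -0.50, against 0.02 over all genes. All 16 mevalonate and sterol genes were below 0, with a median of -0.54, as were 8 of 10 fatty acid genes (median -0.58), against 47.3% of all genes.

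Other probe sets of the same genes mostly shared the sign in this comparison, though their sizes differed. A second probe set passed for Mvk (-0.61, limma adjusted p = 0.0456), Mvd (-0.74, adjusted p = 0.0391) and Scd2 (-1.30, adjusted p = 0.0385). Second probe sets also passed for Lss (-0.80, adjusted p = 0.0165) and Fads2 (-0.86, adjusted p = 0.0456), whose brightest probe sets did not (-0.41 and -0.85). Of 30 other probe sets brighter than the median, 29 had the sign of the gene's brightest one. The 5 calls rest on few arrays. Without siSox2 replicate 2, without siPsmd14 replicate 1 or with only the 4 arrays in the fit, 0 of the 32 passed; without siSox2 replicate 1, 1 passed (Scd2). Without siPsmd14 replicate 2, 5 passed (Mvk, Scd2, Fads1, Fdps and Dhcr7), and without either siNonTarget array 3 (Mvk, Fads1 and Fads2). In all, 29 of 32 fold changes kept their sign whichever of the 4 arrays was left out. The same count was 27 for siDdb1 against siSox2, 14 for siPsmd14 against siDdb1, and 26, 25 and 21 for siSox2, siPsmd14 and siDdb1 against siNonTarget. No such share was computed over all genes, so the counts describe the 32 only.

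Against siSox2, siDdb1 was also lower, with 2 of 32 past the threshold: Fads1 (-0.81, SE 0.15, 1.75-fold lower, limma adjusted p = 0.0228) and Srebf2 (-0.63, SE 0.13, 1.55-fold lower, adjusted p = 0.04). Of all represented genes 2.6% were lower and 2.03% higher in this test (3.65% and 2.89% of the brighter ones), and none of the 32 rose. A second Fads1 probe set, also above the median, gave -0.05, and a second Srebf2 probe set gave -0.36 (limma adjusted p = 0.944 and 0.406). Of the 30 other probe sets brighter than the median, none passed here. Scd2 (-0.73, adjusted p = 0.0521) and Mvd (-0.62, adjusted p = 0.0524) came next and did not pass. Both siDdb1 arrays were below both siSox2 arrays for 24 of 32 (23.9% of all genes) and above for 2, Acly and Fasn (26.4%). The median over the 32 was -0.41, against 0.02 over all genes. With only these 4 arrays in the fit, 1 passed (Fads1); without siSox2 replicate 2 or siDdb1 replicate 1, 0 passed; and without siSox2 replicate 1, 1 passed (Scd2). Without siDdb1 replicate 2, the 2 that passed were Acss2 and Scd1, and without either siNonTarget array 1 passed.

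**Figure D3:**
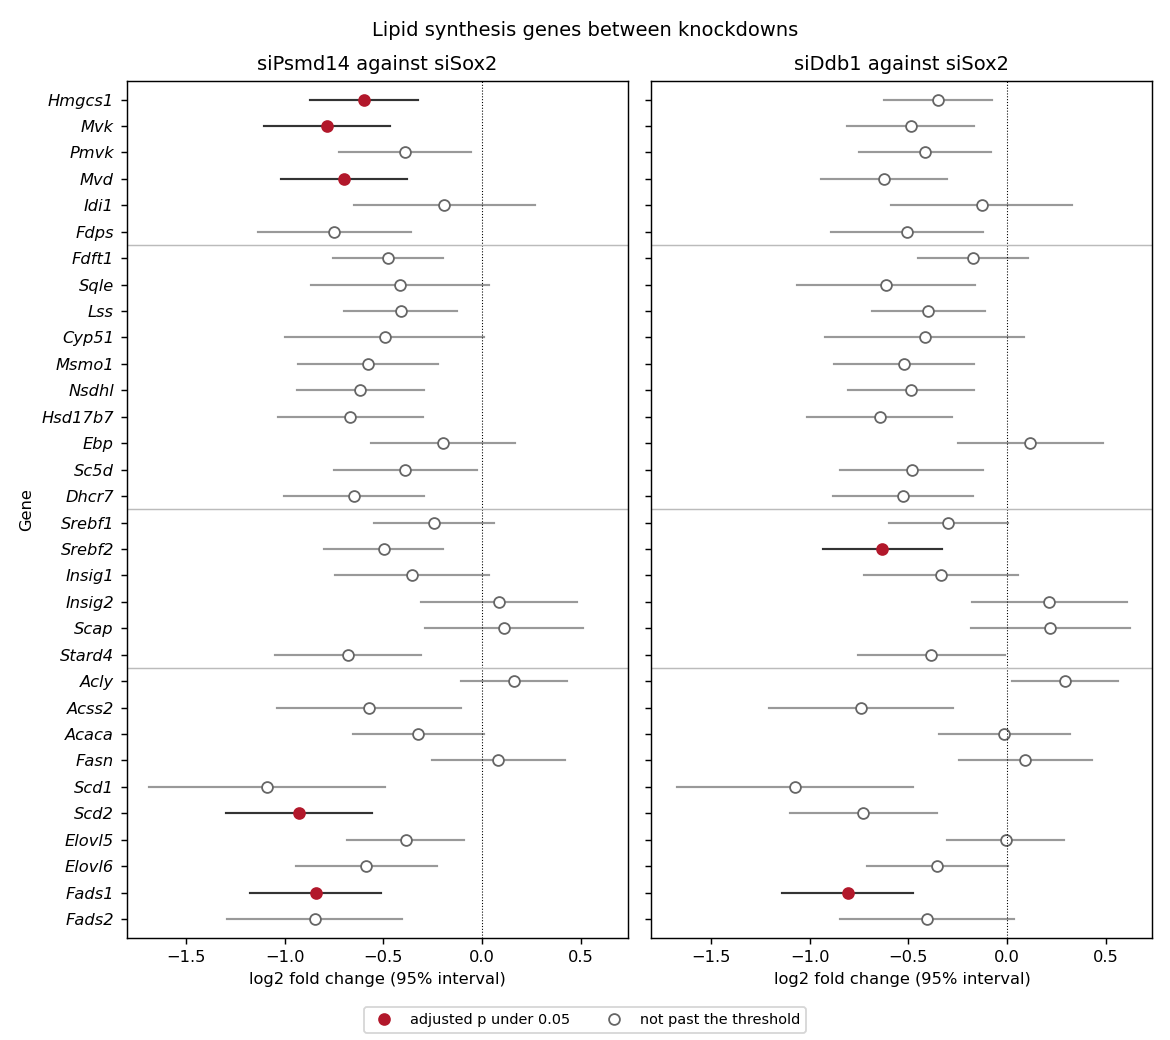
Log2 fold change with its 95% interval for each of the 32 genes in siPsmd14 against siSox2 (left) and siDdb1 against siSox2 (right). Most points lie left of 0; filled points (5 on the left, 2 on the right) passed an adjusted p of 0.05, and both panels use the same siSox2 arrays.

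Between siPsmd14 and siDdb1 no gene of the 32 passed in the limma test, where 0.456% of all genes were higher and 0.132% lower. At an unadjusted p under 0.05, 2 of the 32 were lower and 0 higher (5.86% and 6.49% of all genes), namely Elovl5 (-0.38, 95% interval -0.68 to -0.09) and Fdft1 (-0.30, -0.58 to -0.03). Fads1 (-0.04, -0.37 to 0.30) and Scd1 (-0.02, -0.61 to 0.58) lay close together in these 2 knockdowns, with intervals that leave room for differences of either sign. Both siPsmd14 arrays were below both siDdb1 arrays for 10 of the 32 (20.5% of all genes) and above them for 0 (19.6%). The median over the 32 was -0.09.

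The sterol and fatty acid branches were then set side by side on each array. The median difference of the 16 mevalonate and sterol genes from the control mean was 0.31 and 0.26 in siSox2, -0.34 and -0.28 in siPsmd14, -0.35 and -0.07 in siDdb1, against 0.11 and -0.11 in siNonTarget (replicates 1 and 2). The 10 fatty acid genes gave 0.08 and 0.18 in siSox2, -0.53 and -0.22 in siPsmd14, -0.10 and -0.09 in siDdb1, against -0.003 and 0.003 in siNonTarget. In both branches the siSox2 medians were the highest of the 8. In siSox2, 15 of the 16 mevalonate and sterol genes had fold changes above 0 (44.8% of all genes). The fatty acid genes were split, with 5 above 0 and 5 below. The sterol median minus the fatty acid median was 0.23 and 0.09 in siSox2, 0.19 and -0.06 in siPsmd14, -0.26 and 0.01 in siDdb1, against 0.11 and -0.11 in siNonTarget. In each knockdown 1 array lay within the siNonTarget values and 1 outside them. The siNonTarget values are equal and opposite because these arrays are centred on their own mean. They give 1 difference only, so whether the branches were separated was not tested.

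**Figure D4:**
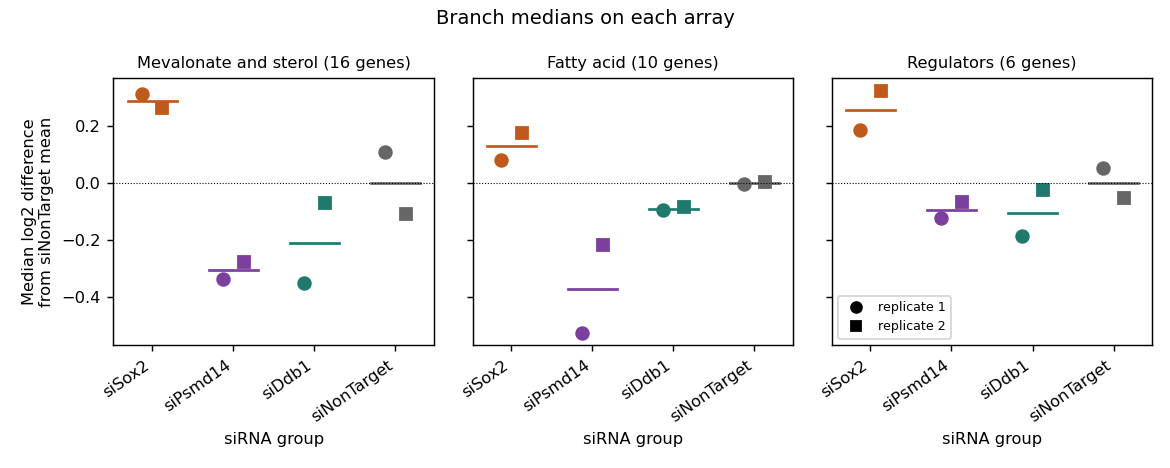
Median log2 difference from the siNonTarget mean over the genes of each branch, 1 point per array (circles, replicate 1; squares, replicate 2) with a line at the mean of the 2. The siSox2 points are above the siNonTarget points in all 3 panels, and the sterol values of siNonTarget span 0.11 to -0.11.

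The replicates themselves differed along this set of genes. In siNonTarget all 16 mevalonate and sterol genes were higher on replicate 1 than on replicate 2, by a median of 0.22, where 52.4% of all genes were higher on replicate 1. The fatty acid genes did not share this (4 of 10, median -0.01). In siDdb1, 2 of the 16 were higher on replicate 1 (median -0.23), in siPsmd14 4 of 16 (-0.10) and in siSox2 11 of 16 (0.07). The sterol median of siSox2 was accordingly 0.43 above siNonTarget replicate 2 alone and 0.17 above replicate 1 alone, and that of siPsmd14 was -0.17 and -0.41. For siDdb1 it was -0.04 and -0.33, and it was -0.35 without its replicate 2 and -0.07 without its replicate 1. In siPsmd14 the fatty acid median was lower on replicate 1 (-0.53) than on replicate 2 (-0.22), and replicate 1 also had the largest Actb difference between 3' and 5' probe sets, while replicate 2 had the highest 18S signal; the part of RNA quality in this was not tested.

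Beyond the 32, a list of 65 other lipid genes was read, of which 55 were measured and the rest were not analysed here. In siSox2 4 of the 55 rose and 1 fell, where 2.81% of all genes rose and 1.46% fell. Elovl1, an elongase of very long saturated chains, read 9.67 and 10.10 in siSox2, against 8.81 and 8.67 in siNonTarget (1.14, SE 0.16, limma adjusted p = 0.00718). Mylip, a ubiquitin ligase that marks lipoprotein receptors for degradation (0.89, adjusted p = 0.0234), the lipoprotein receptor gene Scarb1 (0.67, adjusted p = 0.0333) and the desaturase-family gene Fads3 (1.07, adjusted p = 0.0488) were the others that rose. Mid1ip1, a partner of acetyl-CoA carboxylase, fell to 8.03 and 7.99 in siSox2, against 8.75 and 8.78 in siNonTarget (-0.76, adjusted p = 0.0209).

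In siPsmd14 5 of the 55 rose and none fell, where 1.7% of all genes rose and 0.187% fell. Acadl and Acadvl, acyl-CoA dehydrogenases of mitochondrial fatty acid oxidation, had fold changes of 1.78 and 1.45 (limma adjusted p = 0.00567 and 0.00996). Acadl read 10.32 and 9.77 in siPsmd14, against 8.21 and 8.32 in siNonTarget. The others were the malic enzyme gene Me1 (1.81, adjusted p = 0.00489), a source of NADPH, the phosphatidate phosphatase gene Lpin1 (1.28, adjusted p = 0.0288) and Scarb1 (0.73, adjusted p = 0.041). The 9 measured oxidation genes had medians of 0.21, 0.05 and -0.02 in siSox2, siPsmd14 and siDdb1, with 0, 2 and 0 past the threshold. The 10 synthesis and desaturation genes had 0.13, -0.38 and -0.08, with none past it. Over all genes the medians were -0.03, -0.01 and -0.01. In siDdb1 none of the 55 passed in the limma test, and 8 stood higher and 4 lower at an unadjusted p under 0.05 (5.85% and 4.01% of all genes). The smallest p belonged to Abcg1, a cholesterol exporter (0.96, adjusted p = 0.144), and Elovl2 (1.07, adjusted p = 0.26). Abcg1 read 8.07 and 7.90 in siDdb1, against 7.01 and 7.04 in siNonTarget, and the arrays did not overlap. The medians over the 55 were 0.10, 0.01 and -0.01 in siSox2, siPsmd14 and siDdb1.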

How the data were processed

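Mouse NG4 embryonic stem cells were profiled on 8 Affymetrix arrays, with 2 per siRNA group. The deposited intensity values are on a linear scale and were made by the authors; the submitters' processing notes name RMA, while the RMA version and settings were not given in the sources used here. RMA in its usual form equalises the arrays, which hides changes in total RNA. No scanner files were used here, so detection calls were not made.

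Log2 was taken. The 64 control probe sets were left out, leaving 45037, of which the platform annotation gives 34945 exactly 1 symbol, 932 several and 9160 none. A gene's probe set was the one with the highest mean over the 8 arrays. All arrays entered 1 model in limma 3.58.1 (R 4.3.3, lmFit, eBayes without trend), with Benjamini-Hochberg adjustment over all probe sets and a threshold of 0.05. Adjusted p-values come from that model unless an array is said to be left out. Precision is limited by the number of arrays. Same-numbered replicates deviated together with correlations of -0.22 to 0.24, so they were not treated as pairs.

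Named genes were those past the threshold in any comparison, the 3 of smallest p per branch and knockdown, Srebf1, Srebf2, Insig1 and Insig2, and, of the other lipid genes, up to 6 called per knockdown or the 2 of smallest p. The genes and lists were chosen with earlier results of these data known. On simulated data of 45037 probe sets, 89%, 88% and 89% of changes of 1 log2 unit were recovered for siSox2, siPsmd14 and siDdb1. False calls numbered 18, 18 and 16. The simulation used normal noise of the fitted spread and raised the same genes in all 3 knockdowns. Its shares check the code and are not the power of the real comparisons. The alternatives are in the closing section.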

Additional observations from a re-analysis of the deposited data

How the results depend on the processing

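No gene of the 32 was called against siNonTarget under any alternative run, except Acss2 (1 lower) in siDdb1 without its replicate 2. Against siSox2, the 5 genes lower in siPsmd14 were 0 with only the 4 arrays in the fit and 8 with 1 probe set per gene, and the 2 lower in siDdb1 were 1 with only the 4 arrays, 4 with 1 probe set per gene and 4 without the dimmer 50% of probe sets. Leaving out single arrays gave 0 to 5 and 0 to 3. Leaving out an array outside the comparison left the fold changes as they were and changed only the estimate of the spread. The replicate block gave 4 calls in siPsmd14 against siSox2 (Mvd lost) and 2 in siDdb1 against siSox2, where Scd2 took the place of Srebf2. With the siDdb1 numbers crossed, an alternative chosen after seeing the data, the counts were 7 and 4.

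The fatty acid median of siDdb1 against siNonTarget, -0.085, was -0.071 after quantile normalization and -0.095 with array medians subtracted, and it ran from -0.13 to -0.071 over the fits without single arrays. The sterol median of siPsmd14 against siSox2 was -0.44 with all probe sets of a gene averaged. Of 969 values for the 19 named genes against siNonTarget under the alternatives, 15 changed sign, none of them past the threshold in the main result or the alternative. The causes were not tested. The arrays' number limits what can be called: the 95% half-width of a fold change was 0.342 for the median probe set.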
